A study of Nothobranchius furzeri with 15 samples.

Results

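The 2 rotenone doses were compared in skin of the turquoise killifish (Nothobranchius furzeri), with 5 samples at 150 pM and 5 samples at 15 pM, 10 of the 15 samples of the series. These 10 were taken by their treatment label, and the doses differ by a factor of 10. All fish were males of the inbred GRZ strain, aged 9 weeks, and the 5 samples given the solvent DMSO alone serve here only as background. No label gives the route or the duration of exposure, and none states that each sample came from another fish, so the p-values stand for the variation among these 10 samples, part of which may be technical.

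Rotenone is a plant compound that blocks complex I of the mitochondrial respiratory chain, the enzyme that takes electrons from NADH. In fish, skin is a mixed tissue of epidermis, mucus-producing cells, scales, pigment cells, nerves, vessels and immune cells. In a bulk sample of such a tissue, fewer cells of a type and less RNA per cell cannot be told apart. The files identify genes by number only, and 0 of the 26739 identifiers were found in the RefSeq gene table used here, so genes are given by identifier, with no function, no cell type markers and no level of complex I subunits.

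The total count per sample was 23983152 to 28314659 at 150 pM and 21857670 to 25656954 at 15 pM. The mean was 25180299 ± 1788767 counts at 150 pM and 23869222 ± 1769273 counts at 15 pM (SD, n = 5 each), a difference that did not pass an exact two-sided permutation test (p = 0.286, adjusted p = 0.429 over 3 tests of sample properties). In 2 of the 15 pM libraries the most abundant genes took a smaller share of the counts than elsewhere. A sample's 20 most abundant genes took 25.0% to 32.0% of the counts at 150 pM. At 15 pM they took 18.1% in replicate 1 and 15.9% in replicate 4, against 27.9% to 32.8% in the other 15 pM samples. The means of 27.9 ± 2.80% at 150 pM and 24.9 ± 7.48% at 15 pM (SD, n = 5 each) differed by less than the exact permutation test could call (p = 0.444, adjusted p = 0.444). Genes with at least 1 count numbered 21107 ± 200 at 150 pM and 20937 ± 232 at 15 pM (SD, n = 5 each; exact permutation p = 0.254, adjusted p = 0.429). The smallest p that this test allows with 5 against 5 samples is 0.00794.

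Few genes passed the threshold for a difference between the doses. At an adjusted p under 0.05 by edgeR's quasi-likelihood test on these 10 samples, 44 of 17736 tested genes were called, which is 0.248% of them. Of these, 18 were higher at 150 pM (0.101%) and 26 were lower (0.147%). The largest differences among called genes were decreases at 150 pM: 8 had a log2 fold change beyond -4, whereas 0 called genes were higher by as much. Over all tested genes, 20 were lower and 1 was higher by over 4. Among the called genes higher at 150 pM, 9 exceeded 2 on the log2 scale, as did 71 of all tested genes. Lower by over 2 were 11 called genes and 131 of all tested genes. The median log2 fold change of 150 pM over 15 pM was 1.99 for the called genes higher at 150 pM. It was -1.44 for the genes lower at 150 pM and -0.05 over all tested genes. Before adjustment, 3214 of the 17736 tested genes had a p under 0.05 by the same test, with 1405 higher and 1809 lower at 150 pM. The count of calls depended strongly on the samples and the tool. With the DMSO samples added to the fit, 310 of 18253 genes were called (1.7%), 36 of them among the 44. The count was 973 (5.49% of those tested) by the DESeq2 Wald test and 1016 (5.73%) by limma-voom.

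**Figure D1:**
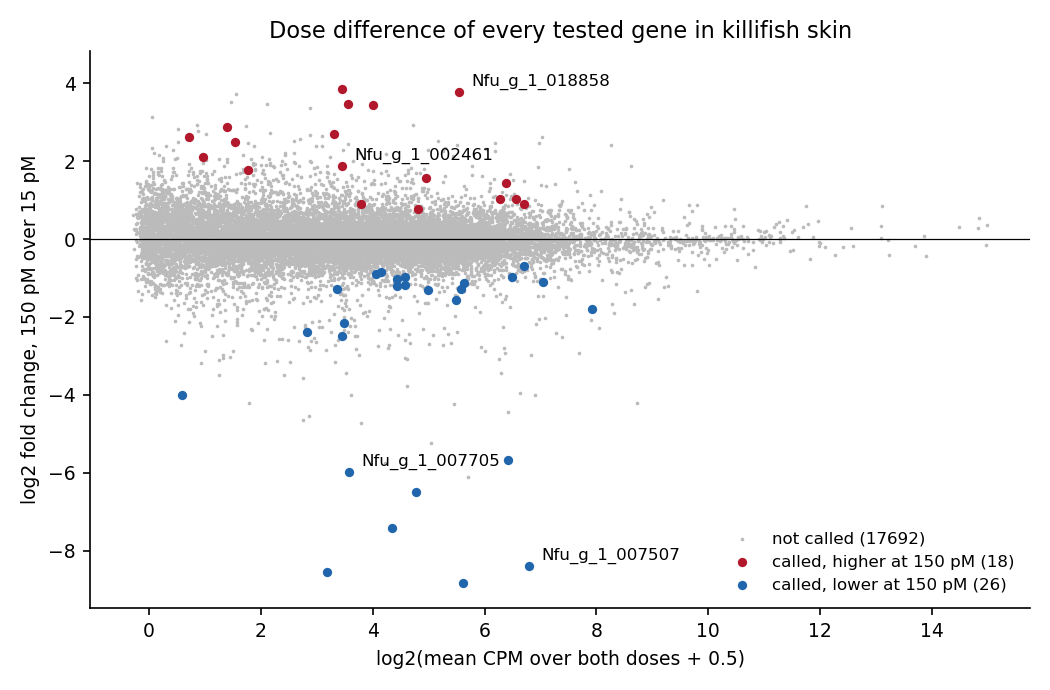
Log2 fold change of 150 pM over 15 pM for each tested gene (vertical axis) against its level, as log2 of the mean CPM over both doses plus 0.5 (horizontal axis). Red points are the 18 genes called higher and blue points the 26 genes called lower at 150 pM, and grey points were not called. The blue points reach -8.82, and the red points reach 3.86.

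The groups did not overlap in any of the 44 called genes. Without overlap of the samples there were 529 genes higher at 150 pM (2.98% of those tested) and 438 lower (2.47%), so most genes with separated groups were not called. The genes called in the 2 directions differed in median length. The median gene length was 5600 bases for the 18 genes higher at 150 pM and 1769 bases for the 26 genes lower at 150 pM, against 2760 bases over the tested genes. It was 5240 bases for the 529 genes higher without overlap and 2504 bases for the 438 lower. Of the 26 called genes lower at 150 pM, 7 stood close together in the deposited table, as described below, and measured 432 to 1416 bases. All 7 were shorter than the median of 1769 bases and so lowered it, and they need not be separate observations. The rest of the genes called lower measured 663 to 10441 bases, with a median above the 2760 bases of the tested genes. The short median of the 26 genes thus rested on these 7. Per length, the median level over the 10 samples was 2.45 RPKM for the genes higher at 150 pM and 12.9 RPKM for those lower, against 4.4998 RPKM over all tested genes. This level is divided by gene length, so it is not a trait separate from length.

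Nfu_g_1_007507, a gene of 444 bases, had the smallest p of all and was abundant at 15 pM and close to absent at 150 pM. At 150 pM it had 0.625, 0.814, 0.685, 0.471 and 0.692 CPM (counts scaled to a common library total) in replicates 1 to 5, from 12 to 22 counts per sample. At 15 pM it had 266.1, 137.4, 175.1, 260.2 and 258.3 CPM in replicates 1 to 5, from 3467 to 7133 counts. The groups were far apart, with replicates 2 and 3 the lowest of the 15 pM samples. The means were 0.657 ± 0.125 CPM at 150 pM and 219.4 ± 59.3 CPM at 15 pM (SD, n = 5 each). By the quasi-likelihood test of edgeR its log2 fold change was -8.39 ± 0.29 (standard error), at an adjusted p of 1.56e-07. In DMSO skin it had 1.05 to 4.53 CPM, above each 150 pM sample and below each 15 pM sample. It was called in each of 22 alternative fits by edgeR, DESeq2 or limma, with adjusted p from 1.41e-188 to 6.36e-06. Among these 22 settings, 1 repeated the main fit.

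Nfu_g_1_007705, of 435 bases, stands in the row just before it in the deposited table and had the next smallest p. It had 0.313, 0.407, 0.137, 0.511 and 0.389 CPM in replicates 1 to 5 at 150 pM, from 3 to 13 counts. At 15 pM it had 35.1, 11.3, 14.4, 27.5 and 24.3 CPM in replicates 1 to 5, from 284 to 941 counts. Again replicates 2 and 3 were the lowest at 15 pM, and no sample of one dose reached the other. The means were 0.351 ± 0.139 CPM at 150 pM and 22.5 ± 9.75 CPM at 15 pM (SD, n = 5 each), a log2 fold change of -5.99 (standard error 0.42, adjusted p = 0.000183 by the same test). DMSO samples had 0.327 to 0.677 CPM, a range that overlapped that of the 150 pM samples. It too was called in each of the 22 alternative fits, with adjusted p from 7.49e-44 to 0.00230.

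**Figure D2:**
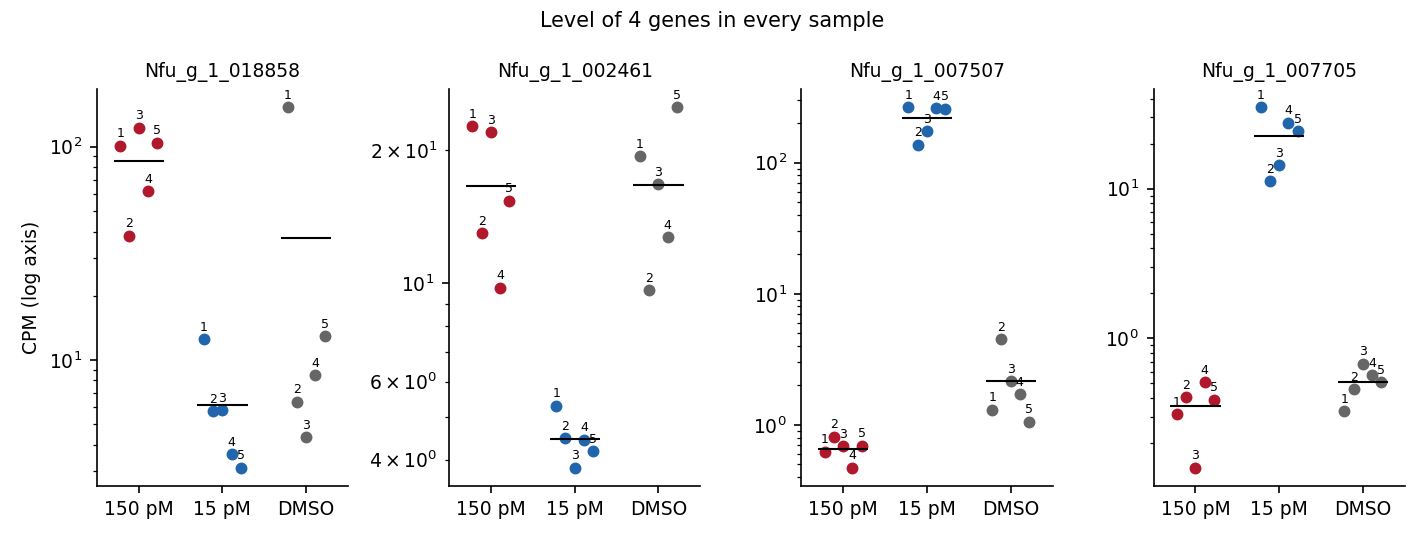
CPM on a log axis of the 4 genes named in the text, in each sample at 150 pM (red), 15 pM (blue) and in DMSO skin (grey). Numbers are replicates and bars are group means. In the leftmost panel DMSO replicate 1 lies above the 150 pM samples and the other DMSO samples lie near the 15 pM samples. In the panel next to it all DMSO samples lie within or near the range at 150 pM. In the 2 panels on the right the 15 pM samples lie above all others.

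Most of the called genes with the largest decreases stood close together in the count table. Of the 8 called genes with a log2 fold change beyond -4, 5 lay within 9 rows, from row 11088 to row 11096, and 2 more in the adjoining rows 20265 and 20266. Of all 20 tested genes lower by over 4 on the log2 scale, the other 12 were not called (adjusted p from 0.0551 to 0.386 by edgeR's test) and 0 of them lay in or within 10 rows of these runs. The doses overlapped in 11 of these 12 genes. Of all 20 genes, 11 had another of the 20 within 10 rows, and 7 of these were called. Some of the uncalled genes thus also stood near one another. In the longer run, the other rows held 2 genes that were not tested for lack of counts and 2 that were not called, with log2 fold changes of -0.66 (adjusted p = 0.194) and -0.44 (adjusted p = 0.528) by edgeR's test. The 2 rows after it held abundant genes that narrowly missed the threshold. These had means of 510.2 and 228.2 CPM at 150 pM and of 1259 and 554.6 CPM at 15 pM, with log2 fold changes of -1.32 and -1.30 and adjusted p of 0.0515 and 0.0668 by the same test. Over all 44 called genes, 9 had another called gene within 10 rows, whereas 3.04% of the tested genes had one. No source used here says whether the rows follow the chromosomes. The 5 genes of the longer run measured 435 to 1416 bases, and the pair 915 and 432 bases. Whether reads were shared between near-identical copies among them is not known, so the split of reads between them is uncertain.

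**Figure D3:**
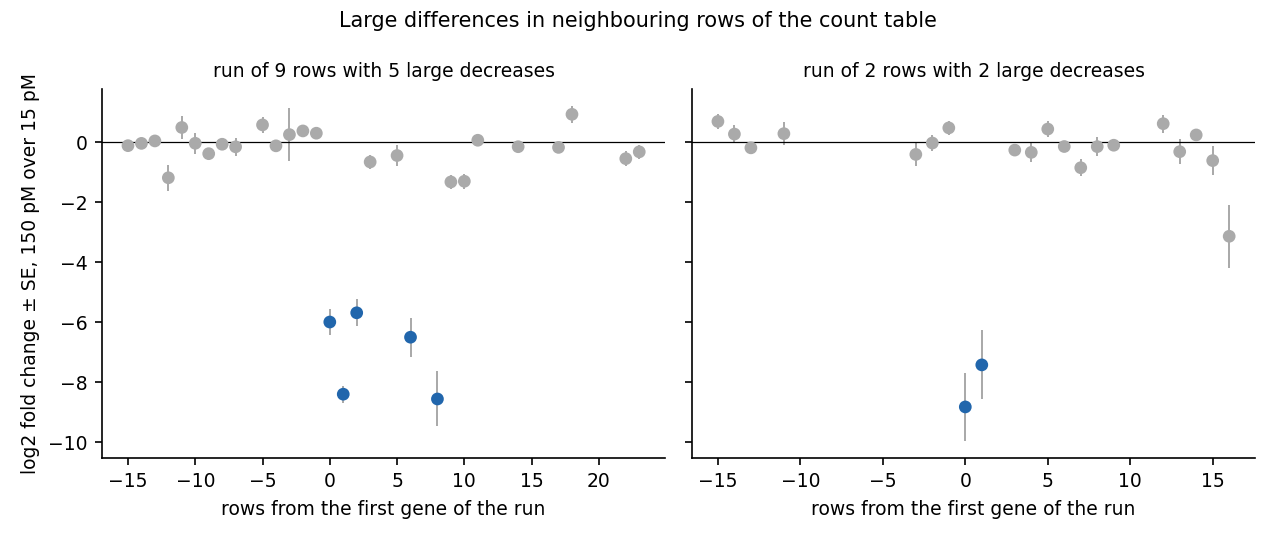
Log2 fold change of 150 pM over 15 pM with its standard error (vertical axis) for each tested gene, by its distance in table rows from the first gene of a run of large decreases (horizontal axis). The left panel shows the run of 9 rows and the right panel the run of 2 rows. Blue points were called lower at 150 pM and grey points were not called.

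The 8 called genes had their lowest 15 pM level in the same sample. Their means were 0.0414 to 3.28 CPM at 150 pM and 1.89 to 219.4 CPM at 15 pM, with log2 fold changes from -4.01 to -8.82 (adjusted p from 1.56e-07 to 0.0369 in the edgeR fit). Replicate 2 was the lowest 15 pM sample in all 8 genes, and replicate 1 was the highest in 6 and replicate 4 in the other 2. Replicate 2 was the lowest in 10 of all 26 genes called lower, these 8 among them, and in 29.0% of the 438 genes lower without overlap. Most of the 8 genes stood in the 2 runs, so they need not be separate observations. The highest 15 pM sample exceeded the lowest by a factor of 1.94 to 32.8. Replicates 1 and 4 are also the libraries with the low share of counts in the most abundant genes, and the part of that in the result was not tested. With both left out, 7 of these 8 genes were still called lower at 150 pM. In DMSO skin the 8 genes averaged 0.260 to 10.4 CPM, and in 7 of them each DMSO sample lay below each 15 pM sample. Gene levels in DMSO samples took no part in the test between the doses.

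The other 18 genes lower at 150 pM differed less. Of these, 3 were lower by 2 to 4 on the log2 scale, 10 by 1 to 2 and 5 by up to 1, the smallest decrease being -0.69. For 25 of all 26 genes lower at 150 pM the DMSO mean was nearer the 150 pM mean than the 15 pM mean, on the log2 scale, against 63.2% of the 438 genes lower at 150 pM without overlap. In 20 of the 26, all 5 DMSO samples lay below each 15 pM sample, which held for 28.8% of the 438. DMSO replicates 1 to 5 reached the lowest 15 pM sample in 1, 4, 0, 1 and 1 of the 26 genes, and in 25.3%, 34.2%, 53.0%, 43.4% and 30.6% of the 438. The DMSO sample with the highest share among the 438 genes, replicate 3, thus reached that level in 0 of the called genes. The 26 were picked by p and the 438 only by separation, so the sets are not matched in size of difference. A DMSO sample has further to go where the doses lie far apart. The 26 also include the 7 genes of the 2 runs, which need not be separate observations.

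Among the genes higher at 150 pM, Nfu_g_1_018858 had the smallest p. At 150 pM it had 101.1, 38.3, 123.0, 61.7 and 104.5 CPM in replicates 1 to 5, with 1035 to 2694 counts. At 15 pM it had 12.496, 5.74, 5.80, 3.62 and 3.12 CPM in replicates 1 to 5, with 62 to 335 counts. Replicates 2 and 4 were the lowest at 150 pM, and all lay above the 15 pM samples. The means were 85.7 ± 34.7 CPM at 150 pM and 6.16 ± 3.75 CPM at 15 pM (SD, n = 5 each), with a fitted difference of 13.6-fold (log2 fold change 3.77, standard error 0.45, adjusted p = 0.0116 in the edgeR fit). In DMSO skin, replicate 1 had 153.5 CPM, more than any rotenone sample, and the other 4 samples had 4.34 to 12.9 CPM, close to the 15 pM samples. With all 15 samples in the fit the call was lost, at an adjusted p of 0.0524 by edgeR, and the adjusted p over the 22 alternatives was 7.56e-16 to 0.0524.

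Nfu_g_1_002461 was the next of the genes higher at 150 pM. Its level was 22.7, 13.0, 21.9, 9.78 and 15.4 CPM in replicates 1 to 5 at 150 pM, with 249 to 580 counts. It was 5.30, 4.48, 3.84, 4.44 and 4.18 CPM in replicates 1 to 5 at 15 pM, with 83 to 142 counts. The 15 pM samples lay close together and below all 150 pM samples. The means were 16.5 ± 5.62 CPM at 150 pM and 4.45 ± 0.540 CPM at 15 pM (SD, n = 5 each), a log2 fold change of 1.87 (standard error 0.24, adjusted p = 0.0160 in the edgeR fit). The DMSO samples had 9.64 to 25.0 CPM, within or near the range at 150 pM. The call was lost without 150 pM replicate 5 (adjusted p = 0.0519 by edgeR) and without 15 pM replicate 3 (adjusted p = 0.0543), over a range of 3.27e-10 to 0.0543 in the alternatives.

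In the 18 genes higher at 150 pM the lowest sample of that dose was replicate 2 or replicate 4. Replicate 2 was the lowest 150 pM sample in 11 of them and replicate 4 in the other 7. Replicate 3 was the highest in 12, and replicates 1, 2 and 5 in 2 each. Over all 529 genes without overlap that were higher at 150 pM, replicate 2 or 4 was lowest in 65.8%. The 9 genes that were higher by over 2 on the log2 scale averaged 1.998 to 85.7 CPM at 150 pM and 0.311 to 6.16 CPM at 15 pM, with adjusted p from 0.0116 to 0.0421 in the edgeR fit. In 8 of these 9, replicate 3 was the highest and replicate 2 the lowest sample at 150 pM, and in the other one replicate 2 was the highest and replicate 4 the lowest.

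Only 1 DMSO sample had all 18 genes called higher at or above the lowest level of the higher dose. DMSO replicate 1 reached the lowest 150 pM sample in all 18 genes, while DMSO replicates 2 to 5 did so in 2, 4, 5 and 3 of the 18. Over the 529 genes higher at 150 pM without overlap, DMSO replicate 1 did so in 75.0% and the other DMSO samples in 28.9% to 45.6%. In 7 of the 9 genes with a difference over 2, DMSO replicate 1 exceeded each other DMSO sample by over 3 times. All 18 genes therefore reached the lowest 150 pM level in 1 library labelled as solvent only, and some of them did so in other DMSO samples too. In a gene with 106.0 to 126.1 CPM in DMSO skin, every DMSO sample lay above the lowest 150 pM sample, at 100.9 CPM.

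**Figure D4:**
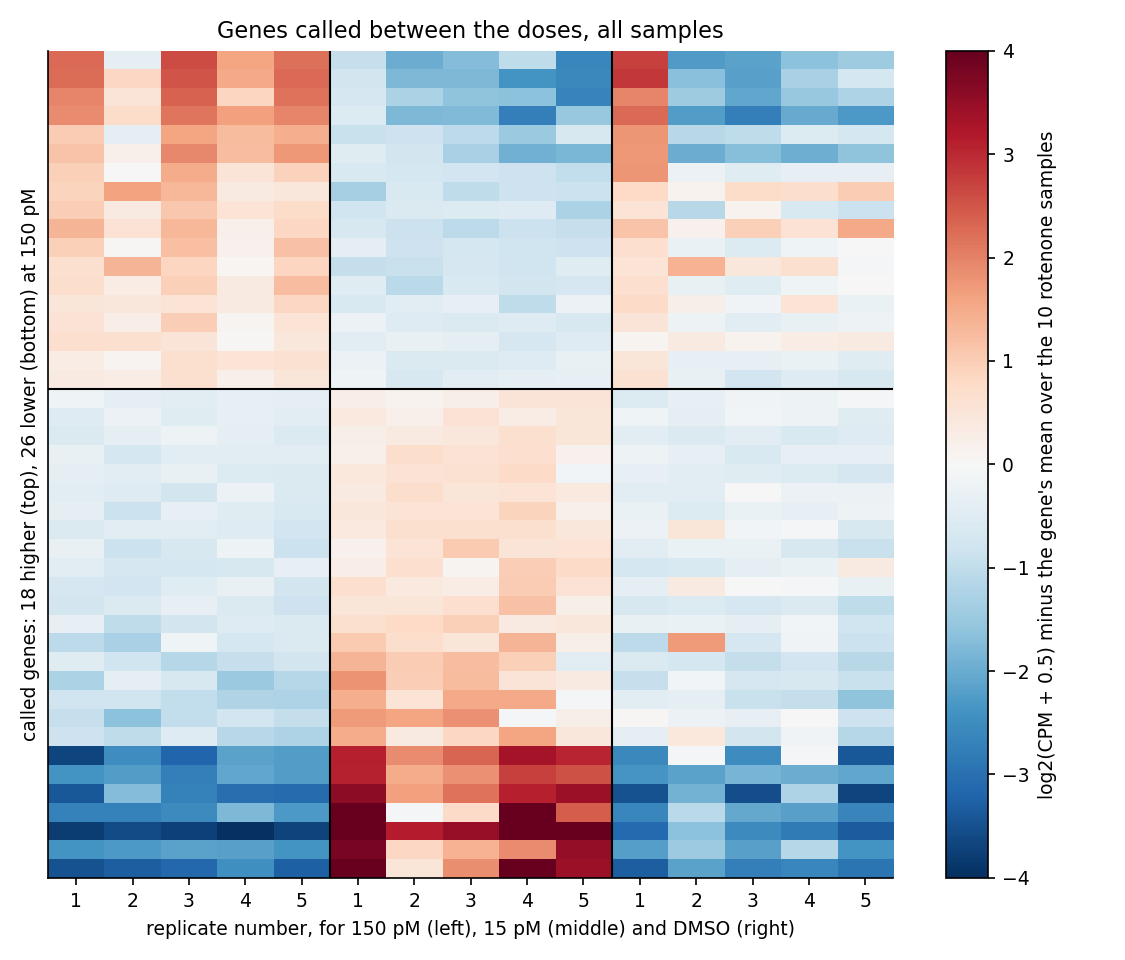
Log2(CPM + 0.5) minus the gene's mean over the 10 rotenone samples, for the 44 called genes (rows, by fold change) in each sample (columns, by replicate number), at 150 pM (left), 15 pM (middle) and in DMSO skin (right). Colours end at -4 and 4. In the 18 upper rows DMSO replicate 1 resembles the 150 pM samples, and in some of these rows other DMSO samples do too. In the lower rows most DMSO samples resemble the 150 pM samples.

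Gene length moved with the dose difference. The tested genes were put into 4 equal classes by length. In the longest class, of over 4771 bases, the median log2 fold change of 150 pM over 15 pM was 0.08 and 59.0% of genes were higher at 150 pM. In the shortest class, of up to 1385 bases, the median was -0.12 and 37.8% were higher. The longest class held 11 of the 18 genes called higher and 5 of the 26 called lower, and the shortest class 0 and 10. Most of these 10 stood in the runs of neighbouring rows, so they need not be separate observations. Outside the runs, the genes called lower fell no more often into the shortest class than into the longest. Within samples, the median deviation from the genes' own means in the longest class minus that in the shortest, in log2, was 0.13, 0.04, 0.17, 0.01 and 0.14 in replicates 1 to 5 at 150 pM. It was 0.03, -0.04, -0.04, -0.11 and -0.31 in replicates 1 to 5 at 15 pM. The doses overlapped in this measure, with 150 pM replicate 4 below 15 pM replicate 1. The 150 pM replicates 1, 3 and 5, with the highest values, were also the 3 samples of that dose with the highest median of the genes called higher. Among DMSO samples replicate 1 had the highest value, 0.08, and the others had -0.07 to 0.03. The part of gene length in the calls was not tested.

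The samples at 150 pM were more alike than those at 15 pM. The median SD of a gene over replicates was 0.23 at 150 pM and 0.40 at 15 pM on the scale of log2(CPM + 0.5), and the SD was larger at 15 pM for 79.4% of the tested genes. Without 15 pM replicate 4 the median at 15 pM was 0.30, while leaving out any 1 sample at 150 pM gave 0.21 to 0.24 there. The genes called higher went the other way, with a larger SD at 15 pM in 5 of 18 and medians of 0.52 at 150 pM and 0.24 at 15 pM. Their means at 15 pM ran from 0.311 to 71.1 CPM. The added 0.5 lowers the SD at the low end and has little weight at the high end. For the gene at 71.1 CPM the SD was 0.25 at 150 pM and 0.14 at 15 pM. For a gene at 60.8 CPM it was 0.18 and 0.30. The part of the added 0.5 in this pattern was not tested. Of the genes called lower, 21 of 26 had the larger SD at 15 pM, with medians of 0.21 at 150 pM and 0.40 at 15 pM. edgeR's test assumes an equal spread at both doses.

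The count of calls moved with single samples. Without 15 pM replicate 4 the test called 100 genes, of which 35 were higher and 65 were lower at 150 pM, and 43 of the 44 genes were among them. Without 150 pM replicate 1, 3 or 5 the counts were 9, 9 and 8 genes, and without 15 pM replicate 2 or 3 they were 17 and 12. Without 150 pM replicate 4 there were 22, and without 15 pM replicate 5 the count was 30, with 9 genes higher. Leaving out 150 pM replicate 2, the lowest sample in many of the genes higher at that dose, gave 42 genes higher and 19 lower. With 15 pM replicates 1 and 4 both left out, 12 genes were called higher and 28 lower, and 18 of these 40 were among the 44. Of the 8 called genes with a log2 fold change beyond -4, 5 to 8 were called in each of the 10 fits with 1 sample left out.

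**Figure D5:**
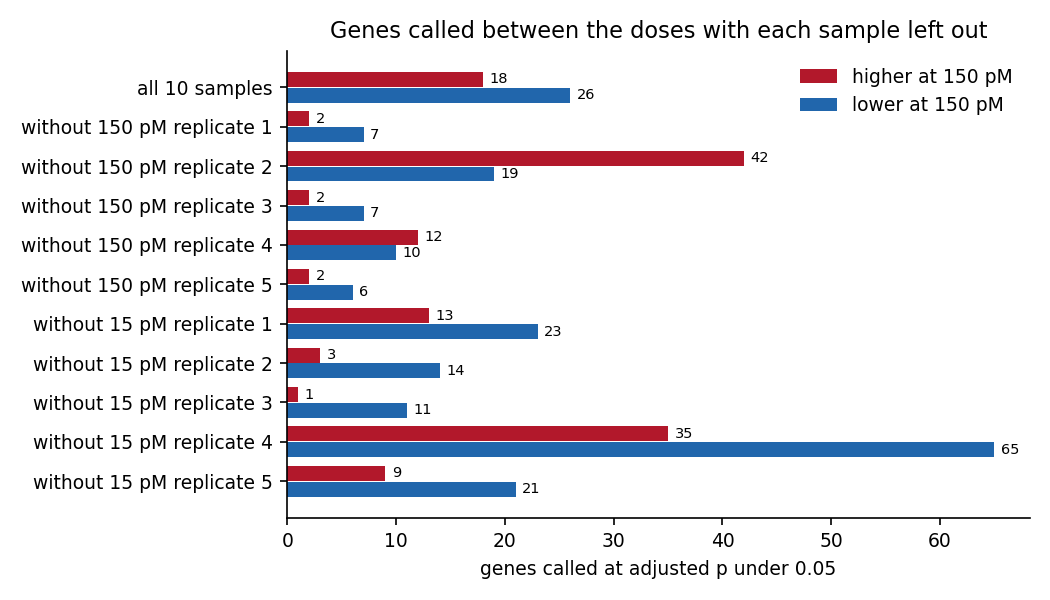
Number of genes called higher (red) and lower (blue) at 150 pM by edgeR's quasi-likelihood test at an adjusted p under 0.05, with all 10 samples and with each sample left out in turn. The counts range from 1 to 42 for genes higher and from 6 to 65 for genes lower at 150 pM.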

How the data were processed

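Gene counts and RPKM values for skin samples were deposited as 2 tables of 26739 genes. Per the labels' protocols the library kit was TruSeq RNA v2, which keeps no strand information, so overlapping antisense genes cannot be separated. The submitters' processing notes name CASAVA 1.8.2, STAR 2.4.1d and featureCounts 1.4.6-p4. No source used here gives the genome build, the annotation or how featureCounts was set. The deposited counts carry no normalization and were used for all tests. The deposited RPKM (counts per gene length and library total) gave 1 gene length in all samples, within 1%, for 100% of 3936 well-counted genes only when the totals were repeated down the rows (0% with each sample's own total). They served only to recover lengths, available for 99.9% of tested genes, and RPKM levels were recomputed from CPM and length.

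Tests used R 4.3.3 and edgeR 4.0.16 on the 10 samples, with filterByExpr (minimum count 10, minimum total 15), TMM factors, a mean per dose, the quasi-likelihood test and Benjamini-Hochberg adjustment over all tested genes. Levels are CPM with TMM factors over all 15 samples. Replicates are numbered in the order of registration. No 2 samples of a dose were alike within counting error (chi-square per degree of freedom of 27.5 to 489.4). On 1 set of simulated counts, the share of false calls was above the 0.05 threshold. These counts were drawn with the same spread of a gene at both doses, unlike the samples. Sample properties were compared by exact two-sided permutation over 252 arrangements. Named genes are the 2 with the smallest p called in each direction. Alternatives included DESeq2 1.42.0 and limma 3.58.1. The comparison, its rules and most alternatives were chosen with earlier results of these data known.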

Additional observations from a re-analysis of the deposited data

Results flagged for a closer look

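Of 18 sets of 5 replicate values, 3 had 1 value well outside the others. The cutoff flags about 1 in 20 by chance only for independent sets with a normal distribution. Some sets were CPM of genes chosen by their p, so the number flagged cannot be judged against that rate. The total count of 150 pM replicate 2 was 28314659, and the other 150 pM samples had at most 24878602. For Nfu_g_1_018858, 15 pM replicate 1 had 12.496 CPM and the other 15 pM samples at most 5.80 CPM. For the same gene, DMSO replicate 1 had 153.5 CPM, and the other DMSO samples had at most 12.9 CPM.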

How the results depend on the processing

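The count of genes called (44, with 18 higher and 26 lower at 150 pM) stayed within 1.5 times under the other scaling factors, filters and robust estimation and without the 20 most abundant genes. It was 310 with all 15 samples in the fit (146 higher, 164 lower), 75 by edgeR's newer quasi-likelihood method (34 higher, 41 lower), 973 by the DESeq2 Wald test (542 higher, 431 lower) and 1016 by limma-voom with quality weights (433 higher, 583 lower). With 1 sample left out it was 8 to 100, with 1 to 42 higher and 6 to 65 lower. The cause was not tested. The planned older quasi-likelihood method proved to be the default of the installed edgeR, so that setting repeated the main fit. The newer one was added after seeing the data. No reported value changed direction in the fold changes of the 4 named genes. The differences in total count, share of the most abundant genes and detected genes did not pass the threshold in any alternative run. No paired analysis was possible because the sample titles of the 2 doses share no numbers. Genes with few counts are limited by depth, as in the 150 pM samples of Nfu_g_1_007705 with 3 to 13 counts.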
